A study of Mus musculus with 12 samples.

Results

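Inflammatory signalling in dendritic cells has brakes of its own, and 10 genes of these brakes and their signalling axis are described here. The genes were chosen by name from the 53465 genes listed: Tnfaip3, which encodes the ubiquitin-editing enzyme A20, with Tnip1, Tnip3, Irak3, Traf1 and Birc3 of its signalling axis, and Zc3h12a, Zfp36, Zfp36l1 and Zfp36l2, whose proteins destroy cytokine mRNA. All 10 were among the 14324 genes tested, those that averaged 10 normalized counts or more in some group.

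RNA was sequenced from bone marrow-derived dendritic cells (BM-DCs) of wild type C57BL/6 mice (C57BL/6J in the study's methods) at week 12 after birth, with n = 3 libraries in each of 4 groups. The “Aβ+LPS” group received oligomers of the human amyloid peptide Aβ1-42 at 0.5 µM for 4 days and, for 18 h, the bacterial product LPS at 100 ng/ml. The “Aβ” group received the oligomers without LPS, the “LPS” group the LPS without oligomers, and the “Ctrl” group neither. Progenitors had become immature BM-DCs after 9 days with GM-CSF, a growth factor. The oligomers were first given on day 8, which the study places the day before LPS, and for 4 days in total. If harvest followed directly, LPS began some days before it. The time between LPS and harvest is not stated in the sources used here, so every comparison with LPS holds for a time after that treatment that is not known exactly. The study set these cultures up like its antigen presentation assays. In those assays ovalbumin and T cells followed LPS, and oligomers were given again with the T cells. Whether each sequenced group received ovalbumin and T cells is not spelled out in the sources used here. The oligomers are compared with no peptide, as libraries of scrambled peptide were not analysed here. BM-DCs are primary cells grown outside the animal, and no source used here says whether the 3 cultures of a group came from separate mice.

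A20 shortens signals from TNF receptors and Toll-like receptors by changing the ubiquitin chains on their adaptors, and its own gene is a classical target of the factor NF-κB that it restrains. The second brake acts later, on the mRNA. Zfp36, also called tristetraprolin, and its relatives bind AU-rich elements in the 3′ untranslated region (UTR) of cytokine mRNA and call in the CCR4-NOT complex that shortens the poly(A) tail, while Zc3h12a (Regnase-1) cuts stem-loops of such mRNA. In dendritic cells both brakes are known for limiting TNF, IL-6 and IL-1β.

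Values are read counts divided by a library factor (normalized counts), and changes are differences of log2(normalized count + 1) with their standard error (SE) from limma, whose p-values were adjusted over all 14324 genes, with a threshold of 0.05. Each library held 23415609 to 29690965 reads in genes, and the 10 genes were covered by at least 132 reads in every library. Libraries of 1 group correlated at r of 0.990 to 0.993 across genes, and none stood apart. All 6 dendritic cell markers were found and passed the minimum in some group. They summed to 96822 to 105573 in Aβ+LPS, 97022 to 101209 in Aβ, 86526 to 97521 in LPS and 96030 to 98320 in Ctrl. Cd74, Itgax and H2-Ab1 made up most of these sums, and single markers moved apart. Cd74 had 39485 to 44980 in Aβ+LPS, 38833 to 42697 in Aβ, 30212 to 39767 in LPS and 42750 to 44527 in Ctrl. H2-Ab1 had 22766 to 25662, 23578 to 24404, 16494 to 18364 and 17518 to 18017 in the same groups. Itgax had 24114 to 25370 normalized counts in Aβ+LPS, 23788 to 24767 in Aβ, 32935 to 34099 in LPS and 30973 to 31468 in Ctrl. Dcstamp went the other way, with 9869 to 10387 in Aβ+LPS, 9160 to 9590 in Aβ, 5742 to 6355 in LPS and 4461 to 4688 in Ctrl, as did Zbtb46, with 370 to 419, 317 to 360, 149 to 174 and 100 to 110 in the same groups. Flt3 was low throughout, at 88.6 to 107 in Aβ+LPS, 52.1 to 72.3 in Aβ, 17.6 to 33.8 in LPS and 1.01 to 9.15 in Ctrl. Its Ctrl values lay under the minimum of 10. All 5 macrophage markers were found too, with sums of 117032 to 124028 in Aβ+LPS, 116510 to 121569 in Aβ, 74935 to 76161 in LPS and 76636 to 78281 in Ctrl, and within them Cd14 and Mrc1 moved in opposite directions. Cd14 stood at 60173 to 64538 in Aβ+LPS, 58308 to 62740 in Aβ, 11220 to 11742 in LPS and 4679 to 5298 in Ctrl. Mrc1 stood at 558 to 563 in Aβ+LPS, 673 to 851 in Aβ, 6677 to 7256 in LPS and 18280 to 20238 in Ctrl. Mertk went with Mrc1, at 1695 to 1806, 1852 to 2058, 3594 to 3777 and 5532 to 5954 in the same groups. Csf1r was lower with Aβ too, at 20693 to 21960, 20462 to 21661, 22924 to 25005 and 24852 to 27263. Adgre1 was higher with Aβ, at 33264 to 35572, 34759 to 35658, 28739 to 29559 and 21540 to 21928. The higher sum with Aβ came mostly from Cd14. T cell markers, 0 of 4 above the minimum, summed to at most 12.9. Neutrophil markers, 3 of 6 above it, summed to 1114 to 1383 in Aβ+LPS, 1254 to 1605 in Aβ, 746 to 794 in LPS and 624 to 916 in Ctrl, while the defining Ly6g, Elane and Mpo had at most 4.66 each. B cell markers, 3 of 4 above the minimum, summed to 82.7 to 99.0 in Aβ+LPS, 37.4 to 56.5 in Aβ, 34.8 to 44.7 in LPS and 12.2 to 19.4 in Ctrl. Mast cell markers, 2 of 4 above the minimum and Mcpt4 at 0, summed to 310.2 to 377 in Aβ+LPS, 262 to 297 in Aβ, 224 to 263 in LPS and 16.2 to 30.9 in Ctrl, most of it Kit. The part of such cells in the results was not tested, and in bulk RNA fewer cells of a type and less RNA per cell cannot be told apart.

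The genes fell into 3 patterns over the 4 groups. Tnfaip3, Tnip1, Irak3, Traf1, Birc3 and Zc3h12a were highest in the groups with Aβ, intermediate in LPS and lowest in Ctrl. Zfp36l1 was higher with Aβ, and its LPS and Ctrl libraries overlapped. Tnip3, Zfp36 and Zfp36l2 were highest in Ctrl. In Aβ+LPS vs. LPS, 7 members were higher and 1 was lower, where 27.8% of all tested genes were called higher and 28.3% lower. In Aβ vs. Ctrl, 7 members were higher and 3 lower, beside 35.1% and 33.7% of all tested genes. In LPS vs. Ctrl, 6 were higher and 3 lower, beside 23.8% and 22.5% of all tested genes. The members' median log2 change was 1.03 in Aβ+LPS vs. LPS, 1.597 in Aβ vs. Ctrl and 0.67 in LPS vs. Ctrl, and that of all tested genes was 0.01, 0.02 and 0.0045. Aβ vs. Ctrl and LPS vs. Ctrl share the Ctrl libraries, so their values stand side by side and are not independent. The p-values measure only the spread between these cultures.

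**Figure D1:**
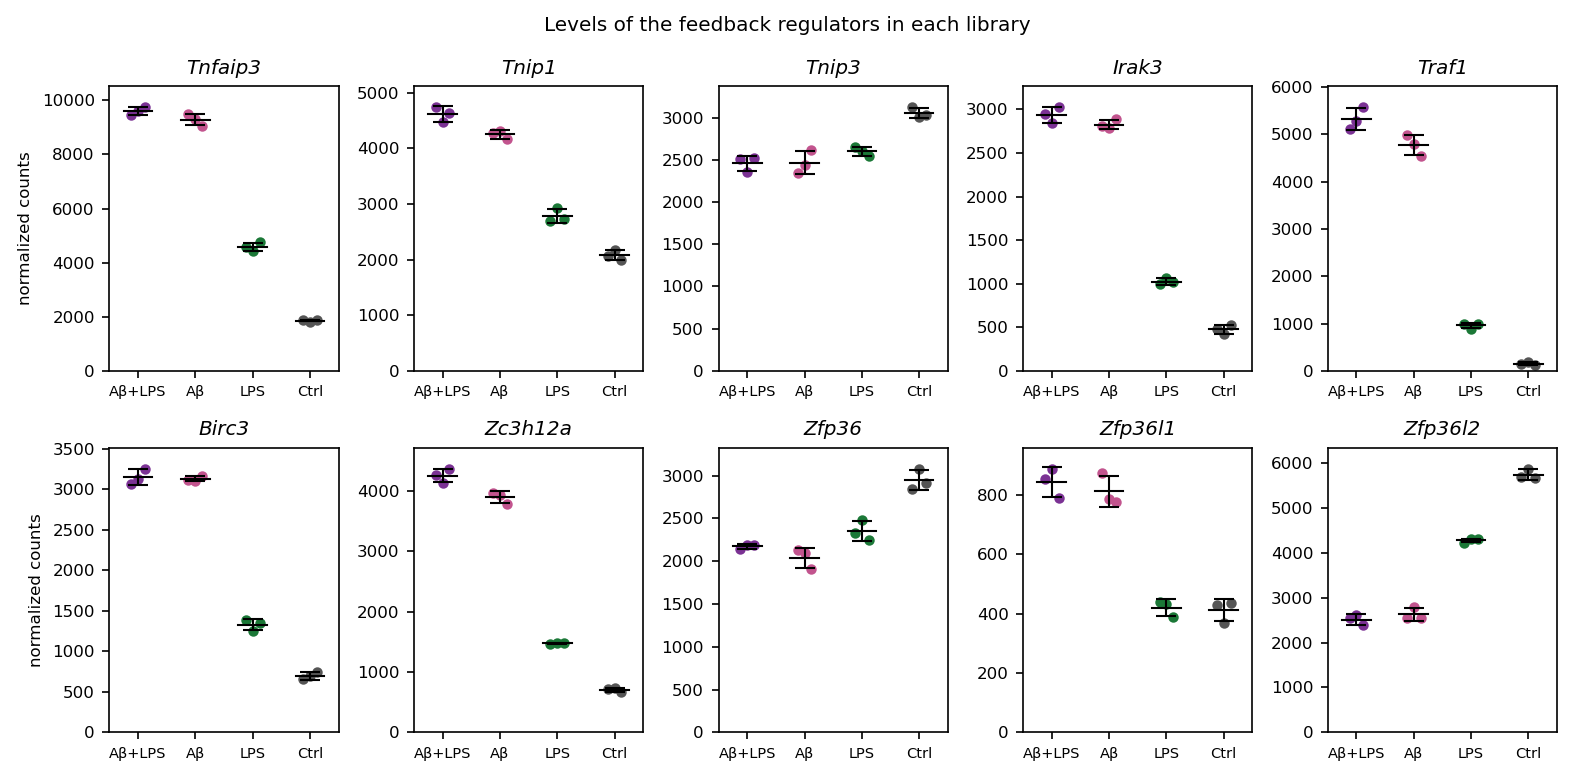
Normalized counts of the 10 genes in each library, in Aβ+LPS, Aβ, LPS and Ctrl from left to right. Points are libraries, lines are means and bars are SD (n = 3), and each axis starts at 0. In 6 genes both groups with Aβ sit above LPS and LPS above Ctrl, while Zfp36l2 runs the other way.

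Tnfaip3, the gene of A20, lies on chromosome 10 (GRCm38, 19000910 to 19015657, minus strand). It had 9460, 9591 and 9751 normalized counts in the Aβ+LPS libraries, 9481, 9304 and 9071 in Aβ, 4570, 4442 and 4752 in LPS, and 1865, 1823 and 1877 in Ctrl. Both groups with Aβ lay well above LPS and LPS above Ctrl, while Aβ+LPS and Aβ overlapped. The log2 change was 1.07 ± 0.039 (SE) in Aβ+LPS vs. LPS, a fold of 2.09 (limma adjusted p = 1.1e-15). It was 2.32 ± 0.039 in Aβ vs. Ctrl, a fold of 5.00 (limma adjusted p = 4.3e-22), and 1.31 ± 0.039 in LPS vs. Ctrl, a fold of 2.47 (limma adjusted p = 5.2e-17).

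The promoter of Tnfaip3 is shown because the A20 gene is a textbook NF-κB target and the RefSeq window, 250 bases before to 50 after the start of transcription (GRCm38.p6), holds the NF-κB consensus in a pair of places. The first match begins 125 bases before the start, behind an AP-1 site (TGANTCA) that begins 136 bases before it and does not overlap it. The other begins 12 bases before the start and matches on the opposite strand. The windows of Tnip1 and Tnip3 are shown beside it since they hold the consensus too. Capitals mark the match and all 4 sequences are written 5′ to 3′ on the strand of the gene.
Tnfaip3, chr10:19015506-19015555, minus strand: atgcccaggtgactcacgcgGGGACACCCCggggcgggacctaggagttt
Tnfaip3, chr10:19015393-19015442, minus strand: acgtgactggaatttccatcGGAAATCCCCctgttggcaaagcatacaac
Tnip1, chr11:54962969-54963018, minus strand: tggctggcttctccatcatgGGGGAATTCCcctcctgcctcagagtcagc
Tnip3, chr6:65590324-65590373, plus strand: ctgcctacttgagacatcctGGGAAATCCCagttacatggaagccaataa
The Tnip1 stretch holds 3 overlapping matches, at 58, 57 and 56 bases before the start, of which the first is in capitals, and the Tnip3 match begins 54 bases before the start. RefSeq windows were given for 9 of the 10 genes, 11 windows in all, with Zfp36l2 lacking. Over both strands the NF-κB consensus occurred in 8.46% of all 32851 windows of that length, and among the members in those of 3 genes. The AP-1 site occurred in 7.81% of all windows, and among the members in Tnfaip3 and Zfp36l1. The cyclic AMP element TGACGTCA stood in 1.79% of all windows and in 0 of the members'. A match is a description of the letters and not a measured binding site, and Tnip3, which holds one, was lower in Aβ and in LPS than in Ctrl.

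Tnip1 encodes an adaptor that binds A20 and linear ubiquitin chains. It had 4739, 4471 and 4639 normalized counts in Aβ+LPS, 4266, 4313 and 4167 in Aβ, 2695, 2931 and 2721 in LPS, and 2065, 2175 and 1996 in Ctrl. No library of 1 group reached into another group. Tnip1 was higher by 0.73 ± 0.046 (log2) in Aβ+LPS vs. LPS (limma adjusted p = 9.4e-12), 1.03 ± 0.046 in Aβ vs. Ctrl (9.6e-15) and 0.42 ± 0.046 in LPS vs. Ctrl (1.2e-07).

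Tnip3, a second A20-binding protein, took the opposite course and by little. Its normalized counts were 2504, 2359 and 2519 in Aβ+LPS, 2348, 2438 and 2614 in Aβ, 2652, 2607 and 2545 in LPS, and 3124, 3006 and 3026 in Ctrl. Every treated library lay below every Ctrl library. Tnip3 fell by 0.31 ± 0.047 on the log2 scale in Aβ vs. Ctrl (limma adjusted p = 5.1e-06) and by 0.23 ± 0.047 in LPS vs. Ctrl (limma adjusted p = 3.4e-04). In Aβ+LPS vs. LPS its log2 change was −0.08 ± 0.047 and did not pass the test (limma adjusted p = 0.15), though the 3 libraries of each group did not overlap.

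Irak3, also called IRAK-M, is a catalytically poor member of the IRAK kinases that holds back signals below Toll-like receptors. It had 2949, 2839 and 3025 normalized counts in Aβ+LPS, 2803, 2788 and 2886 in Aβ, 993, 1065 and 1016 in LPS, and 477, 423 and 532 in Ctrl. The groups with Aβ overlapped each other and lay far above LPS, which lay above Ctrl. Its log2 change came to 1.52 ± 0.063 in Aβ+LPS vs. LPS (limma adjusted p = 8.8e-15), 2.57 ± 0.063 in Aβ vs. Ctrl (3.1e-19) and 1.11 ± 0.063 in LPS vs. Ctrl (4.5e-12). Irak3 overlaps the protein-coding gene Tmbim4 on the other strand, and the libraries kept the strand, but the strand setting of the counting is not given in the sources used here. Tmbim4 averaged 2696 ± 78.6 normalized counts in Aβ+LPS, 2795 ± 96.0 in Aβ, 1925 ± 126 in LPS and 1557 ± 49.7 in Ctrl (SD, n = 3 each), and its log2 changes were 0.49, 0.84 and 0.30 in the same order of comparisons. How far reads were shared between these genes was not tested. Zfp36, Zfp36l1 and Zfp36l2 have antisense partners as well, of which those listed had at most 33.6 normalized counts in any library.

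Traf1, an adaptor that carries the ubiquitin ligases Birc2 and Birc3 to TNF receptors, changed the most of the 10. It had 5125, 5291 and 5578 normalized counts in Aβ+LPS, 4981, 4807 and 4549 in Aβ, 990.3, 897 and 994 in LPS, and 136, 185 and 135 in Ctrl. All 4 groups were apart. The log2 change was 4.98 ± 0.085 in Aβ vs. Ctrl, a fold of 31.6 (limma adjusted p = 5.3e-22). It was 2.47 ± 0.085 in Aβ+LPS vs. LPS, a fold of 5.55 (limma adjusted p = 3.8e-16), and 2.67 ± 0.085 in LPS vs. Ctrl, a fold of 6.35 (limma adjusted p = 1.6e-16).

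Birc3, whose product cIAP2 adds ubiquitin to RIPK1, had 3067, 3125 and 3253 normalized counts in Aβ+LPS, 3112, 3105 and 3161 in Aβ, 1391, 1251 and 1346 in LPS, and 655, 694 and 748 in Ctrl. The groups with Aβ were interleaved, while LPS and Ctrl each stood apart. Birc3 was higher by 1.24 ± 0.054 (log2) in Aβ+LPS vs. LPS (limma adjusted p = 1.5e-14), 2.16 ± 0.054 in Aβ vs. Ctrl (3.3e-19) and 0.93 ± 0.054 in LPS vs. Ctrl (5.0e-12).

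Zc3h12a, the endonuclease Regnase-1, was higher with Aβ, as most of the A20 axis was. It had 4254, 4138 and 4368 normalized counts in Aβ+LPS, 3963, 3930 and 3780 in Aβ, 1461, 1473 and 1488 in LPS, and 712, 734 and 671 in Ctrl. All 4 groups were apart. Zc3h12a was higher by 1.53 ± 0.046 (log2) in Aβ+LPS vs. LPS (limma adjusted p = 3.8e-17), 2.46 ± 0.046 in Aβ vs. Ctrl (2.3e-21) and 1.06 ± 0.046 in LPS vs. Ctrl (3.3e-14).

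**Figure D2:**
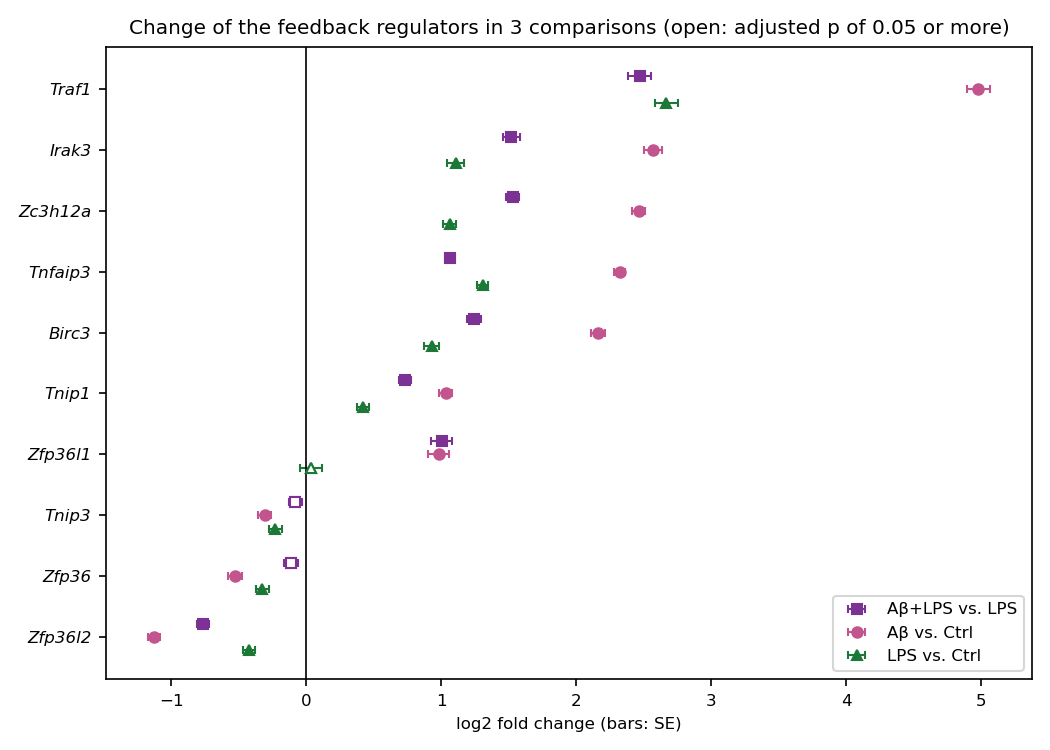
Log2 fold change of the 10 genes in Aβ+LPS vs. LPS (squares), Aβ vs. Ctrl (circles) and LPS vs. Ctrl (triangles), with SE as bars and open symbols where the adjusted p was 0.05 or more. Traf1 has the highest change in all 3 comparisons, up to 4.98, and Zfp36l2 is below 0 in all 3.

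The 3 members of the Zfp36 family differed from one another. Zfp36 itself had 2145, 2193 and 2185 normalized counts in Aβ+LPS, 2127, 2092 and 1910 in Aβ, 2328, 2481 and 2253 in LPS, and 2845, 3082 and 2920 in Ctrl. The Ctrl libraries were the highest, and the LPS libraries lay above those with Aβ by a narrow margin. Zfp36 fell by 0.53 ± 0.051 on the log2 scale in Aβ vs. Ctrl (limma adjusted p = 5.4e-09) and by 0.33 ± 0.051 in LPS vs. Ctrl (limma adjusted p = 1.7e-05). Its log2 change of −0.11 ± 0.051 in Aβ+LPS vs. LPS did not pass (limma adjusted p = 0.062). Without LPS replicate 3 the change was −0.14 with an adjusted p of 0.031, and without Aβ replicate 3 the adjusted p was 0.045.

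Zfp36l1 was the 1 family member that was higher with Aβ, at 855, 889 and 791 normalized counts in Aβ+LPS, 874, 786 and 777 in Aβ, 441, 432 and 390.0 in LPS, and 430, 368 and 437 in Ctrl. LPS and Ctrl overlapped, as did Aβ+LPS and Aβ, and the 2 pairs did not meet. The log2 change was 1.00 ± 0.079 in Aβ+LPS vs. LPS (limma adjusted p = 4.1e-10) and 0.98 ± 0.079 in Aβ vs. Ctrl (limma adjusted p = 3.0e-10), against 0.03 ± 0.079 in LPS vs. Ctrl (limma adjusted p = 0.75).

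Zfp36l2 had 2544, 2610 and 2383 normalized counts in Aβ+LPS, 2546, 2782 and 2547 in Aβ, 4223, 4299 and 4295 in LPS, and 5677, 5871 and 5653 in Ctrl. The groups with Aβ overlapped each other and lay below LPS, and LPS lay below Ctrl. Zfp36l2 fell by 0.77 ± 0.046 on the log2 scale in Aβ+LPS vs. LPS (limma adjusted p = 4.1e-12), fell by 1.13 ± 0.046 in Aβ vs. Ctrl (1.9e-15) and fell by 0.42 ± 0.046 in LPS vs. Ctrl (1.0e-07). It was the only member called lower in Aβ+LPS vs. LPS.

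The family's own mRNA carries the element that its proteins are known to bind. The heptamer TATTTAT, written as DNA, was sought in 1 annotated 3′ UTR a gene (GENCODE vM21, GRCm38), a search added after the expression values were seen. Of the 9 members reported it stood in the 3′ UTR of 5: 3 times each in Zfp36, Zfp36l1 and Zfp36l2, and 1 time each in Tnip3 and Birc3. Of all 20909 genes 27.1% had at least 1 and 4.00% at least 3. For comparison the mRNA of Tnf, a known target, had 8. A longer UTR gives more room for matches, and the median UTR of all genes was 911 bases. Those of Tnip3 (2932), Zfp36l1 (1835) and Zfp36l2 (1822) were longer, and those of Zfp36 (774) and Birc3 (564) shorter. Per kb of UTR there were 3.9 heptamers in Zfp36, 1.8 in Birc3, 1.6 each in Zfp36l1 and Zfp36l2, and 0.34 in Tnip3. The stricter nonamer TTATTTATT stood 1 time each in Birc3 and the 3 family members, against 7.39% of all genes. These 4 sites, each with 10 bases on either side of the heptamer in capitals, are shown because they set members that hold the nonamer side by side.
Zfp36, chr7:28376952-28376978, minus strand: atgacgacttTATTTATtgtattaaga
Zfp36l1, chr12:80108168-80108194, minus strand: actgttggatTATTTATtttagaaatt
Zfp36l2, chr17:84184915-84184941, minus strand: ctatttaactTATTTATtatcttgtga
Birc3, chr9:7848782-7848808, minus strand: aaattcctgtTATTTATtggatgacat
The sites lie 590, 1405, 822 and 465 bases after the stop codon in this order. Genes that hold the nonamer were found on both sides: in Aβ vs. Ctrl Birc3 and Zfp36l1 were higher, and Zfp36 and Zfp36l2 were lower. Upstream, the Zfp36 window holds a match to the letters of the serum response CArG box, as do 1.63% of all windows. The match, in capitals, begins 58 bases before the start and is not a measured binding site.
Zfp36, chr7:28379257-28379306, minus strand: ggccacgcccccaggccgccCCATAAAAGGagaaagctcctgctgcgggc

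Levels of different genes were set side by side per kb of exon, the union of all annotated exons. This union can be longer than the mRNA made and then lowers the value. For Zfp36 it equalled the whole length of the gene, 3470 bases, and it was long for Traf1 (8819) and Tnfaip3 (7226). The order of the genes therefore holds for this measure only. In Aβ+LPS the order was led by Zc3h12a at 1476 ± 39.9 normalized counts per kb, followed by Tnfaip3 at 1329 ± 20.1 and Tnip1 at 1304 ± 38.3 (SD, n = 3), and the last 2 did not differ beyond their spread. In Ctrl it was led by Zfp36l2 at 1624 ± 33.8 and Zfp36 at 850 ± 35.0, with Tnip1 at 587 ± 25.5. Zfp36l2 held rank 5 in both groups with Aβ and rank 1 in LPS and Ctrl. Traf1 reached 605 ± 26.0 per kb in Aβ+LPS, where it did not differ from Birc3 (629 ± 19.0) and Zfp36 (627 ± 7.43) beyond the spread, against 17.2 ± 3.27 in Ctrl, where it was last. Tnip3 was last in Aβ+LPS at 225 ± 8.08 per kb, with an exon union of 10916 bases that spans all isoforms and lowers its value. Irak3, Birc3 and Zfp36l1 in Ctrl, at 130 ± 14.8, 140 ± 9.30 and 138 ± 12.6 per kb, did not differ beyond their spread.

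**Figure D3:**
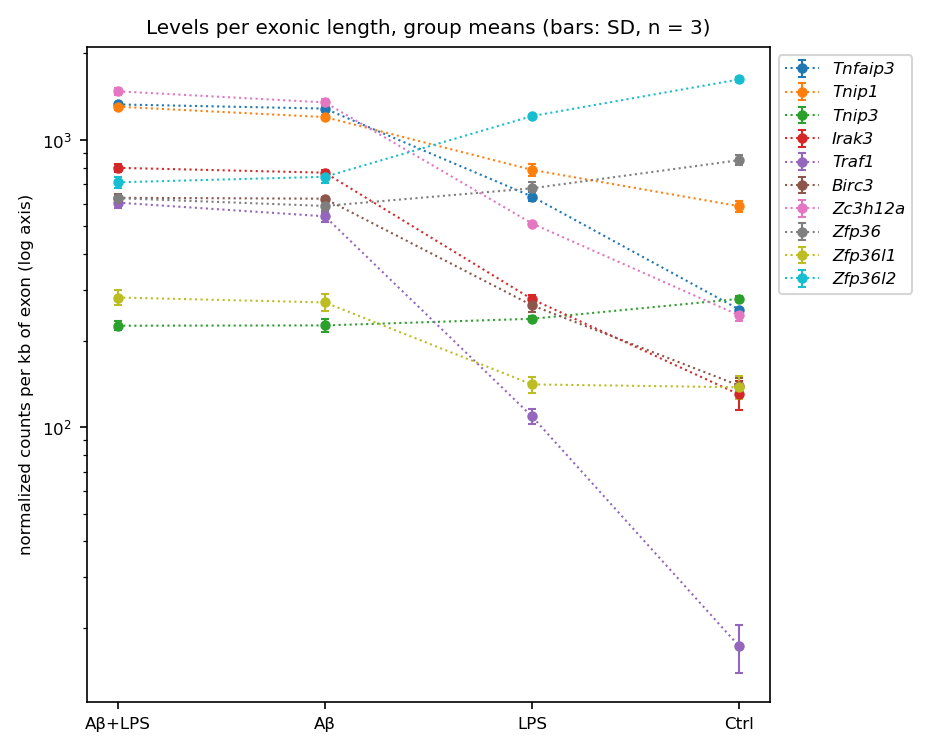
Mean level of each gene per kb of exon on a log axis, in Aβ+LPS, Aβ, LPS and Ctrl from left to right, with SD as bars (n = 3). Zc3h12a leads in Aβ+LPS at 1476 and Zfp36l2 in Ctrl at 1624, and Traf1 stands at 605 in Aβ+LPS and at 17.2 in Ctrl. The length is the union of all annotated exons, so the order of the genes holds for this measure only. The dotted lines only join points of 1 gene.

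Adding LPS to cells that already had Aβ gave no call. In Aβ+LPS vs. Aβ, 0 of the 10 members were called by limma, by edgeR or by DESeq2, beside 0.0279% of all tested genes called higher and 0.112% lower. At an unadjusted p under 0.05, 2 members passed in limma and 3 each in edgeR and DESeq2, beside 6.36%, 6.97% and 5.49% of all genes these tools tested. In 4 members the 3 libraries of each group did not overlap, all with Aβ+LPS above Aβ: Tnip1, Traf1, Zc3h12a and Zfp36. Of all tested genes, 6.99% were apart in that direction and 6.65% in the other. The log2 change was 0.13 for Zc3h12a, with a 95% interval of 0.03 to 0.22 (limma unadjusted p = 0.011, adjusted p = 0.55), and 0.12 for Tnip1, with 0.02 to 0.21 (limma unadjusted p = 0.016, adjusted p = 0.59). For Tnfaip3 it was 0.05, with an interval of −0.03 to 0.13, for Birc3 0.01 (−0.10 to 0.12), and for Zfp36l2 −0.06 (−0.16 to 0.03). The widest interval, −0.02 to 0.34, was that of Traf1 around 0.16. All 10 intervals stayed between −0.16 and 0.34.

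Aβ alone set against LPS alone gave 7 members higher and 2 lower, beside 27.0% and 27.2% of all tested genes. Traf1 was 2.31 ± 0.085 higher on the log2 scale in Aβ than in LPS (limma adjusted p = 1.4e-15), Irak3 1.46 ± 0.063 (2.0e-14), Zc3h12a 1.40 ± 0.046 (2.1e-16) and Tnfaip3 1.02 ± 0.039 (3.0e-15). Zfp36l2 fell by 0.70 ± 0.046 (limma adjusted p = 2.0e-11) and Zfp36 by 0.20 ± 0.051 (limma adjusted p = 0.0017). Tnip3, at −0.08 ± 0.047, was not called (limma adjusted p = 0.17), but without Aβ replicate 3 its change was −0.12 with an adjusted p of 0.045. Doses and times of the agents differ, so this sets conditions and not potencies side by side.

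Whether the change with Aβ was the same with and without LPS was tested as an interaction, the log2 change in Aβ+LPS vs. LPS minus that in Aβ vs. Ctrl. It was called lower for 6 members and higher for 3, beside 16.6% and 15.2% of all tested genes. The difference was −2.51 ± 0.12 for Traf1 (limma adjusted p = 5.4e-13), −1.26 ± 0.056 for Tnfaip3 (1.2e-13), −1.05 ± 0.090 for Irak3 (7.6e-09), −0.93 ± 0.065 for Zc3h12a (2.8e-10), −0.92 ± 0.076 for Birc3 (4.5e-09) and −0.30 ± 0.065 for Tnip1 (0.001). In these 6 genes the change with Aβ was smaller in cells that also had LPS, and LPS alone was above Ctrl in each of them. By its definition the interaction also equals the log2 change in Aβ+LPS vs. Aβ minus that in LPS vs. Ctrl. No member was called in Aβ+LPS vs. Aβ, so the interaction largely restates LPS vs. Ctrl with the sign turned and is not a separate result. The 3 genes that were lower in Aβ vs. Ctrl had log2 changes nearer 0 in Aβ+LPS vs. LPS, where only Zfp36l2 was called: the difference was 0.42 ± 0.072 for Zfp36 (limma adjusted p = 1.0e-04), 0.36 ± 0.065 for Zfp36l2 (1.6e-04) and 0.23 ± 0.066 for Tnip3 (0.011). For Zfp36l1 it was 0.02 ± 0.11 and did not pass (limma adjusted p = 0.91).

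**Figure D4:**
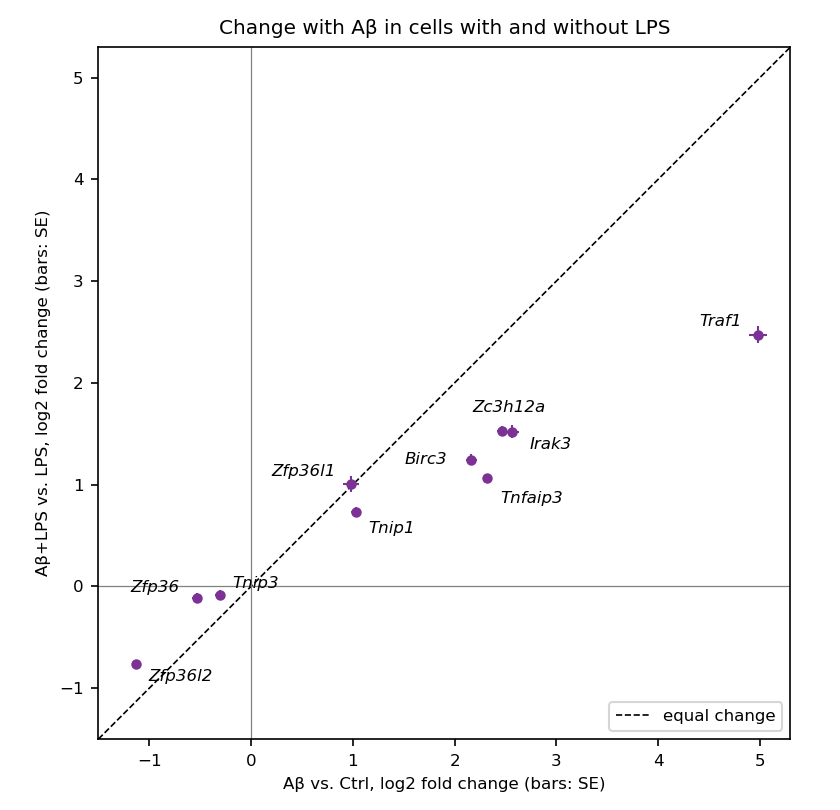
Log2 change with Aβ in cells with LPS (Aβ+LPS vs. LPS, vertical) against that in cells without LPS (Aβ vs. Ctrl, horizontal) for the 10 genes, with SE as bars and a dashed line of equal change. Zfp36l1 lies on the line at 1.00 and 0.98, the 6 other genes that were higher with Aβ lie below it, and the 3 that were lower in Aβ vs. Ctrl lie above it.

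Around A20, 25 genes of the TNF receptor and Toll-like receptor machinery were looked at, a list written with earlier results known. In Aβ+LPS vs. LPS 12 were higher and 2 lower, in Aβ vs. Ctrl 12 and 5, and in LPS vs. Ctrl 10 and 6, with medians of 0.11, 0.11 and 0.02. For Aβ+LPS vs. LPS the shares called were 48.0% up and 8.00% down, beside 27.8% and 28.3% of all tested genes. In Aβ vs. Ctrl 48.0% were called up, beside 35.1% of all tested genes. The share called down there was below the 33.7% of all tested genes. For LPS vs. Ctrl the shares were 40.0% up and 24.0% down, beside 23.8% and 22.5%, so lower calls were near the share of all tested genes. Birc2, the twin of Birc3, averaged 1256 ± 72.7 normalized counts in Aβ+LPS, 1268 ± 45.8 in Aβ, 758 ± 32.2 in LPS and 538 ± 14.9 in Ctrl (SD, n = 3 each). Its log2 change was 0.73 in Aβ+LPS vs. LPS (limma adjusted p = 7.1e-10) and 1.23 in Aβ vs. Ctrl (3.6e-14), where Traf3, an adaptor that works with the same ligases, rose by 0.94 (2.3e-12). Tnfrsf1b, a TNF receptor that binds Traf1 complexes, was 0.81 higher in Aβ+LPS vs. LPS (limma adjusted p = 1.4e-13). In LPS vs. Ctrl the kinase gene Irak2 rose by 0.70 (limma adjusted p = 1.9e-11) and Traf5 by 0.59 (4.1e-06), while the ubiquitin-conjugating enzyme gene Ube2n fell by 0.27 (0.0018) and Tab1 by 0.25 (0.022). Irak4, the kinase that starts the IRAK cascade, fell by 0.36 in Aβ+LPS vs. LPS (limma adjusted p = 1.3e-05) and by 0.35 in Aβ vs. Ctrl (1.1e-05), and Ripk1, a substrate of A20 and cIAP2, fell by 0.26 in Aβ+LPS vs. LPS (5.2e-04). Tab1, a partner of the kinase TAK1, fell by 0.52 in Aβ vs. Ctrl (limma adjusted p = 1.4e-05). Its call in LPS vs. Ctrl was lost without LPS replicate 1 or 3 or Ctrl replicate 1 or 2, at −0.24 to −0.19 with limma adjusted p of 0.056 to 0.11.

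Of 16 partners of A20, deubiquitinases and other brakes, the test called 7 up and 2 down in Aβ+LPS vs. LPS, 11 and 2 in Aβ vs. Ctrl, and 6 and 1 in LPS vs. Ctrl, with medians of 0.17, 0.35 and 0.12. The shares in Aβ+LPS vs. LPS were 43.8% and 12.5%, beside the same 27.8% and 28.3% of all tested genes. In Aβ vs. Ctrl they were 68.8% and 12.5%, beside 35.1% and 33.7%. For LPS vs. Ctrl they were 37.5% and 6.25%, beside 23.8% and 22.5%. Malt1, a protease that cleaves A20, Zc3h12a and N4bp1, averaged 16672 ± 459 normalized counts in Aβ+LPS, 16120 ± 485 in Aβ, 7791 ± 269 in LPS and 5244 ± 231 in Ctrl (SD, n = 3 each). It was 1.10 higher in Aβ+LPS vs. LPS (limma adjusted p = 2.9e-15) and 1.62 higher in Aβ vs. Ctrl (1.0e-18). N4bp1, itself a ribonuclease, was 0.62 higher in Aβ+LPS vs. LPS (limma adjusted p = 4.6e-10). Usp18, a protease for the ubiquitin-like ISG15, rose by 1.33 in Aβ vs. Ctrl (limma adjusted p = 2.2e-11) and by 0.99 in LPS vs. Ctrl (1.1e-08). In LPS vs. Ctrl Tank, an adaptor that restrains TRAF signals, rose by 0.59 (limma adjusted p = 1.2e-10) and the deubiquitinase gene Cyld by 0.19 (0.012), a call lost without LPS replicate 1 or 3 or Ctrl replicate 2, at 0.13 to 0.16 with limma adjusted p of 0.053 to 0.084, and lost at 0.19 with only the 2 groups (0.064). The receptor gene Tnfrsf21 fell by 0.38 in Aβ vs. Ctrl (limma adjusted p = 3.7e-07) and by 0.22 in LPS vs. Ctrl (6.4e-04). Sigirr, a receptor that damps Toll-like receptor signals, was scarce, at 28.4 ± 4.57 normalized counts in Aβ+LPS, 26.7 ± 3.97 in Aβ, 59.4 ± 12.5 in LPS and 76.8 ± 9.84 in Ctrl, and fell by 1.03 in Aβ+LPS vs. LPS (limma adjusted p = 4.5e-04) and by 1.49 in Aβ vs. Ctrl (3.7e-06). Itch, a ubiquitin ligase of the A20 complex, fell by 0.19 in Aβ+LPS vs. LPS (limma adjusted p = 0.0024).

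The machinery that the Zfp36 family calls in was called in both directions, at shares that were not above those of all tested genes except for lower calls in Aβ+LPS vs. LPS. Of 37 genes of deadenylation, decapping and the exosome, the test called 8 up and 12 down in Aβ+LPS vs. LPS, 12 and 11 in Aβ vs. Ctrl, and 7 and 2 in LPS vs. Ctrl, with medians of −0.01, −0.03 and 0.03. The shares were 21.6% up and 32.4% down in Aβ+LPS vs. LPS, beside 27.8% and 28.3% of all tested genes, 32.4% and 29.7% in Aβ vs. Ctrl, beside 35.1% and 33.7%, and 18.9% and 5.41% in LPS vs. Ctrl, beside 23.8% and 22.5%. Btg1, which links RNA-binding proteins to the deadenylase, rose by 0.83 in Aβ+LPS vs. LPS (limma adjusted p = 1.3e-11), by 1.52 in Aβ vs. Ctrl (1.4e-16) and by 0.65 in LPS vs. Ctrl (1.2e-09). The exosome gene Exosc4 rose by 0.48 in Aβ+LPS vs. LPS (limma adjusted p = 6.1e-05) and the decapping gene Dcp1a by 0.57 in Aβ vs. Ctrl (3.5e-08). Dis3, the nuclease of the exosome, fell by 0.68 in Aβ+LPS vs. LPS (limma adjusted p = 1.2e-06) and by 0.83 in Aβ vs. Ctrl (3.5e-08), and Exosc8, another subunit, fell by 0.76 in Aβ vs. Ctrl (8.6e-08). In LPS vs. Ctrl Cnot4, of the CCR4-NOT complex, rose by 0.52 (limma adjusted p = 1.1e-06), and Tob1 and Tob2 each fell by 0.23 (0.043 and 0.023). The call of Tob1 was lost without any 1 of 8 libraries (Aβ+LPS replicates 1, 2 and 3, Aβ replicate 2, LPS replicates 1 and 2, Ctrl replicates 1 and 2), at −0.24 to −0.12 with limma adjusted p of 0.05 to 0.28. It was also lost with no filter (limma adjusted p = 0.078), with TMM factors (0.053) and with only the 2 groups (0.10). That of Tob2 was lost without LPS replicate 3 or Ctrl replicate 2, at −0.17 with limma adjusted p of 0.12 in both.

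Of 20 other RNA-binding regulators of cytokine mRNA, 19 were tested. In Aβ+LPS vs. LPS the test called 8 up and 4 down, in Aβ vs. Ctrl 7 and 4, and in LPS vs. Ctrl 5 and 5, with medians of 0.03, 0.01 and 0.01. These were shares of 42.1% and 21.1% in Aβ+LPS vs. LPS, beside 27.8% and 28.3% of all tested genes. In Aβ vs. Ctrl they were 36.8% and 21.1%, beside 35.1% and 33.7%. For LPS vs. Ctrl they were 26.3% each, beside 23.8% and 22.5%. Mapkapk2, the kinase that phosphorylates Zfp36 and so blocks its action, averaged 10493 ± 276 normalized counts in Aβ+LPS, 10096 ± 471 in Aβ, 4752 ± 151 in LPS and 4492 ± 143 in Ctrl (SD, n = 3 each). It was 1.14 higher in Aβ+LPS vs. LPS (limma adjusted p = 1.8e-15) and 1.17 higher in Aβ vs. Ctrl (4.4e-16). Zc3h12c, a relative of Zc3h12a, rose by 1.69 in Aβ vs. Ctrl (limma adjusted p = 1.4e-16) and by 1.15 in LPS vs. Ctrl (7.1e-13), while Zc3h12d fell by 0.51 in Aβ+LPS vs. LPS (2.3e-05) and by 0.42 in Aβ vs. Ctrl (1.4e-04). Arid5a, which protects Il6 mRNA against Zc3h12a, was 0.61 higher in Aβ+LPS vs. LPS (limma adjusted p = 3.5e-06). Khsrp, a protein that promotes decay, fell by 0.34 in Aβ vs. Ctrl (limma adjusted p = 7.1e-06), Tial1 by 0.25 in Aβ+LPS vs. LPS (0.0078), and Hnrnpd by 0.27 (0.0023) and Ywhab by 0.32 (3.2e-07) in LPS vs. Ctrl, where Igf2bp2 rose by 0.57 (2.2e-09). Without Aβ+LPS replicate 3 the change of Tial1 was −0.18 and no longer called (limma adjusted p = 0.06).

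The mRNAs that these brakes are known to destroy were higher with Aβ. Of 13 known Zfp36 targets, 13 were higher in Aβ+LPS vs. LPS and in Aβ vs. Ctrl, and 9 in LPS vs. Ctrl, with 0 lower and medians of 3.29, 4.26 and 0.94. The first pair of medians fell on Csf2 and Il23a, which averaged under 1 normalized count in LPS and Ctrl, so that their fitted changes depend on the pseudocount. Both passed the minimum of 10 only through groups with Aβ, and Il6 and Il10 lay under it in Ctrl. The count of 0 lower was thus partly fixed by that filter, and both target lists were written with earlier results known. Of 9 known Zc3h12a targets, 9, 9 and 7 were higher in the same comparisons, with 1 lower, Tfrc in LPS vs. Ctrl, and 6 genes stand in both lists. Of all tested genes 27.8%, 35.1% and 23.8% were called higher in these comparisons. Il6 averaged 12705 ± 1054 normalized counts in Aβ+LPS, 10812 ± 368 in Aβ, 224 ± 9.60 in LPS and 3.86 ± 1.07 in Ctrl (SD, n = 3 each). Il1b averaged 38510.2 ± 2540 in Aβ+LPS, 33329 ± 1158 in Aβ, 1478 ± 38.8 in LPS and 81.1 ± 10.1 in Ctrl. The change in Aβ+LPS vs. LPS was 5.81 ± 0.10 for Il6 (limma adjusted p = 6.4e-21), 4.70 ± 0.064 for Il1b (1.3e-22), 2.17 ± 0.092 for Nfkbiz (1.2e-14), 1.54 ± 0.075 for Ier3 (1.2e-13), 1.01 ± 0.064 for Ccl3 (1.2e-11) and 0.63 ± 0.051 for Tfrc (5.7e-10). The lowest called change in Aβ vs. Ctrl among the Zfp36 targets was that of Il10, 1.62 ± 0.45 (limma adjusted p = 0.003), at 24.1 ± 8.52 normalized counts in Aβ and 7.03 ± 2.01 in Ctrl, and among the Zc3h12a targets that of Tfrc, 0.16 ± 0.051 (0.0071), which was 0.12 and not called without Aβ replicate 3 (limma adjusted p = 0.055). In LPS vs. Ctrl Il12b rose by 4.44 ± 0.099 (limma adjusted p = 3.0e-19) and Tfrc, the transferrin receptor, fell by 0.40 ± 0.051 (1.3e-06). Steady-state mRNA does not separate synthesis from decay.

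**Figure D5:**
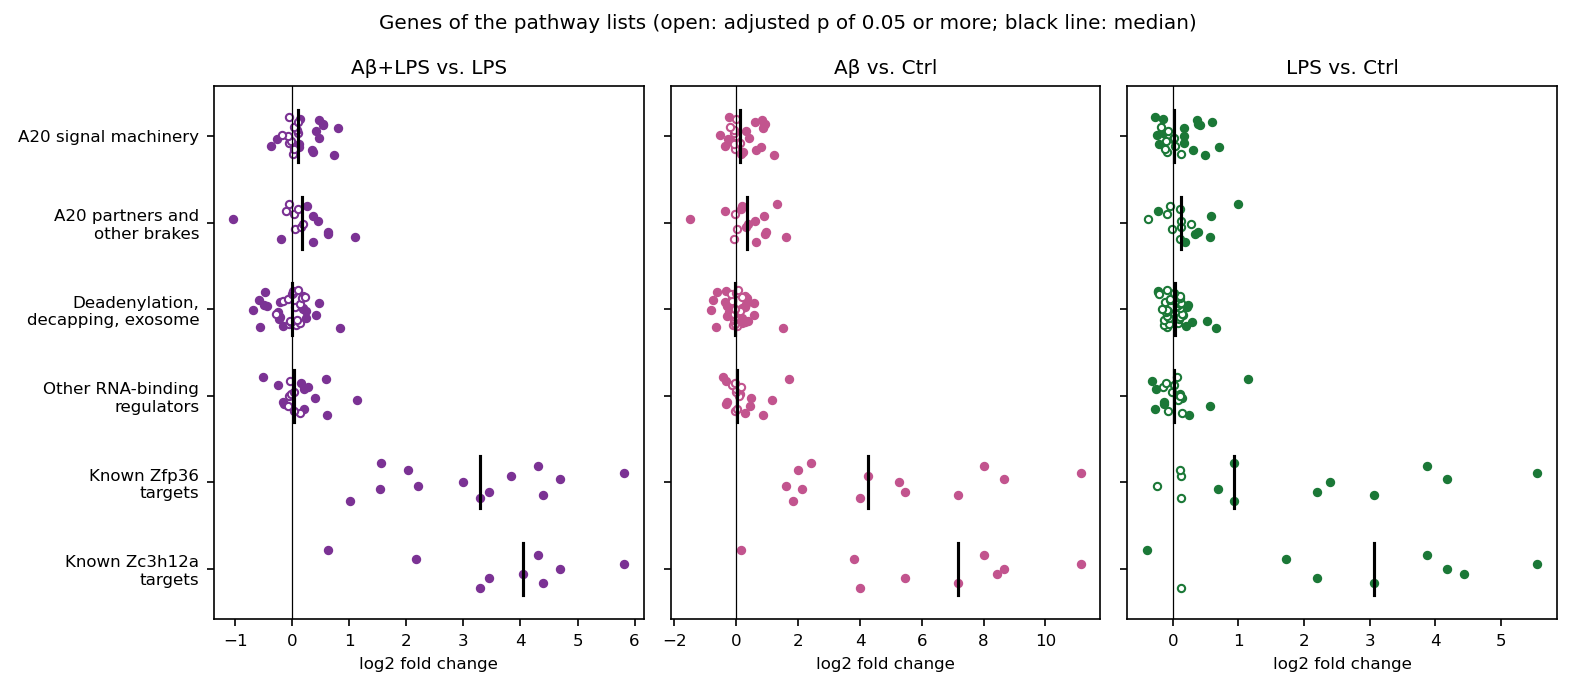
Log2 fold change of every tested gene of the 6 pathway lists in Aβ+LPS vs. LPS, Aβ vs. Ctrl and LPS vs. Ctrl from left to right (axes differ in range), with open points where the adjusted p was 0.05 or more and a black line at each median. Both target lists lie right of 0 in the first 2 panels, with medians of 3.29 and 4.26 for the Zfp36 targets. These medians fell on Csf2 and Il23a, which were nearly absent in LPS and Ctrl and passed the minimum only through groups with Aβ. Their values depend on the pseudocount, and the lists were written with earlier results known. Medians of the other lists run from −0.03 to 0.35, the highest that of A20 partners and other brakes in Aβ vs. Ctrl.

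Genes with the most similar pattern were sought among the 10328 genes that averaged 100 normalized counts or more over all libraries, by Pearson's r of log2 values over the 12 libraries. The libraries fall into 4 groups, so r orders mainly group means, and no p is given. For Tnfaip3 these were Acod1, the itaconate enzyme gene (r = 0.9997, mean normalized counts 27039 in Aβ+LPS, 24641 in Aβ, 5324 in LPS and 767 in Ctrl), Acpp (0.9993) and Thbs1 (0.9993). For Zc3h12a they were the chemokine gene Ccl22 (0.9995), Penk (0.9994) and Syt7 (0.9994). For Zfp36l2 they were Rufy1 (0.9974), Grap2 (0.9970) and Ivd (0.9969), all highest in Ctrl. Zfp36 had less similar neighbours, Arhgap1 (0.9842), Cfl1 (0.9819) and Cdc37 (0.9800).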

How the data were processed

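RNA of 12 BM-DC cultures, 3 per group, was sequenced by the authors (stranded poly(A) libraries, single reads, 100 bp). The submitters' processing notes name FastQC 0.11.5, HISAT2 2.1.0, featureCounts 1.6.0, DESeq2, R 3.4.4 and the build GRCm38. The expression signal deposited per gene and library is a read count that the authors divided by a size factor. The deposited columns of the authors' own comparisons (log2 fold changes, errors, p-values) were not used, and 0 other per-sample columns were left out. Multiplied by 1 factor per library, 100% of the values were whole reads to within 0.05, and these reads served edgeR and DESeq2.

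The 14324 genes that averaged 10 or more in some group were fitted with limma 3.58.1 (intensity trend) on log2(normalized count + 1), all 12 libraries, group as the only term, 8 residual degrees of freedom, two-sided, Benjamini-Hochberg adjustment. Alternatives were pseudocounts of 0.5 and 5, no filter (26760 genes), a minimum of 50 (11748 genes), a replicate block, TMM factors, edgeR 4.0.16 (quasi-likelihood), DESeq2 1.42.0, only the 2 groups compared, and each library left out. Tables and figures were made in Python 3.11.15 (Matplotlib 3.10.9, NumPy 2.4.6, pandas 2.3.3) and fits in R 4.3.3. The fit was also run on simulated counts in which few genes changed. That setting differs from comparisons with many calls, so the run does not vouch for them.

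Gene IDs were found in GENCODE vM21 for 99.6% of rows. The members and lists were chosen with earlier results of these data known. Up to 4 genes per list and comparison are named, the 2 highest and 2 lowest called changes. Promoter windows come from RefSeq (GRCm38.p6), and 3′ UTRs from the principal transcript, taking the longest UTR. The 3′ UTR of 1 member is not reported here. A planned comparison of protein sequences was not run.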

Additional observations from a re-analysis of the deposited data

Results flagged for a closer look

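The change with Aβ differed between cells with and without LPS in 9 of the 10 genes, by the interaction test of limma, beside 31.7% of all tested genes. The difference in log2 change (with LPS minus without) was −1.26 for Tnfaip3, −0.30 for Tnip1, −1.05 for Irak3, −2.51 for Traf1, −0.92 for Birc3 and −0.93 for Zc3h12a. It was 0.23 for Tnip3, 0.42 for Zfp36 and 0.36 for Zfp36l2. Each of these kept its sign and its call in all alternatives run. As no member was called in Aβ+LPS vs. Aβ, these differences largely restate LPS vs. Ctrl with the sign turned. Groups of 3 libraries are too small for a test of outlying samples.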

How the results depend on the processing

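Of 1250 member changes recomputed under the alternatives, 1246 kept their side of the threshold, 0 called changes reversed and 4 became calls. The 4 were Zfp36 in Aβ+LPS vs. LPS with a replicate block (−0.11, limma adjusted p = 0.044) and without LPS replicate 3 or Aβ replicate 3, and Tnip3 in Aβ vs. LPS without Aβ replicate 3. The number of members called was 8 to 9 in Aβ+LPS vs. LPS, 9 to 10 in Aβ vs. LPS, and otherwise as reported. Over all genes, the 20 calls of Aβ+LPS vs. Aβ were 12 with no filter, 40 with DESeq2 and 64 with only these 2 groups. With each library left out in turn they ranged over 7 to 36: 7 without Aβ replicate 2 or Aβ+LPS replicate 2, 8 without Aβ replicate 3, 12 without Aβ replicate 1, 13 without Aβ+LPS replicate 1 and 36 without Ctrl replicate 2. The causes were not tested. Of 1500 list counts 51 moved by over 1.5 times, and of 2328 changes of named list genes 59 were no longer called and 0 reversed. Libraries of 1 number did not deviate together (correlations of −0.086 to 0.037), so the replicate block rests on a number alone, and it left 24 calls in Aβ+LPS vs. Aβ. Only between Aβ+LPS and Aβ did all 3 libraries correlate best with their own number.

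The 3 cultures of a group set the precision, and small differences between Aβ+LPS and Aβ were not detectable beyond the intervals given. Reads of overlapping genes on opposite strands cannot be told apart without the strand setting. The annotated 3′ UTRs are not those measured in these cells. The planned comparison of protein sequences was not run.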
